A study of Mus musculus with 12 samples.

Results

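The late night step compared the 2 libraries collected at circadian time 22 (CT22) with the 2 collected at CT18, 1 library of each time on each of 2 days, so 4 of the 12 libraries of the series were members. They were chosen by the circadian time in their labels, and no measured value entered the choice. The series profiled polyA RNA of CD8+ T cells taken from lymph nodes of male C57BL/6J mice, 8 weeks of age, kept in constant darkness and killed at CT2, CT6, CT10, CT14, CT18 or CT22. The labels name no genotype beyond the strain and no treatment, so the 2 groups differ, as labelled, in circadian time only. How many mice gave each library and how the T cells were enriched were not given in the sources used here, so p-values measure the spread between libraries, which may be partly technical.

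Circadian time counts the hours of the animal's own day without light cues, and CT18 and CT22 fall in the middle and the late part of the subjective night, when mice are active. The mammalian clock is a feedback loop in which BMAL1 (Arntl) and CLOCK switch on the Per and Cry repressors and the REV-ERB receptors Nr1d1 and Nr1d2, and REV-ERB proteins in turn repress Arntl. In lymphocytes this clock, together with daily hormone rhythms, is known for gating traffic through lymph nodes and responses to antigen.

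The 12 libraries held 24689964 to 33497078 gene-assigned counts. The CT18 libraries held 26174929 and 27073131, and the CT22 libraries 27360398 and 26335137. Cd8a, which encodes a chain of the co-receptor that defines these cells, stood at 1449 and 1410 CPM (counts scaled to the size of the library) at CT18 on days 1 and 2, and at 1345 and 1294 CPM at CT22. Both CT22 libraries lay below both CT18 libraries, with a log2 difference of -0.12 ± 0.09 (standard error, as after every ± below, where log2 differences are CT22 minus CT18). The libraries also held RNA of genes that mark other cell types, among them 15 of 15 tested monocyte and macrophage markers, whose sums stood higher at CT22 and are given below. In such bulk libraries, fewer cells of a type and less RNA per cell cannot be told apart.

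No gene passed the test between CT18 and CT22. Of 16396 genes tested with edgeR's quasi-likelihood test, 0 were higher (0%) and 0 lower (0%) at an adjusted p under 0.05, and the smallest adjusted p was 0.9995. At an unadjusted p under 0.05, 277 genes stood apart (1.69%), 146 higher (0.89%) and 131 lower (0.799%), where the threshold alone would give 819.8. DESeq2 and limma on TPM also called 0 genes, with 80 and 427 at an unadjusted p under 0.05. These tests took the spread from all 12 libraries, where the biological coefficient of variation (the spread between libraries of 1 time beyond counting noise) was 0.0967. The 2 CT2 libraries lay furthest apart. Without both of them the coefficient was 0.0711, and 0 genes passed, with 506 at an unadjusted p under 0.05. Estimated from the 4 libraries alone, with 2 residual degrees of freedom, it was 0.0472, and 25 genes passed (0.152%, 20 higher and 5 lower). These genes are described below with the cell type markers.

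Among the 6 steps around the clock, all judged by 1 spread pooled over the times, CT18 to CT22 had the fewest genes at an unadjusted p under 0.05. The share was 10.6% from CT2 to CT6, 4.65% from CT6 to CT10, 14.1% from CT10 to CT14, 5.71% from CT14 to CT18 and 12.5% from CT22 to CT2. At an adjusted p under 0.05, 207 genes (1.26%) passed from CT10 to CT14, 6 (0.0366%) from CT14 to CT18 and 3 (0.0183%) from CT2 to CT6, and none passed across the others. The median size of the log2 difference was 0.08 from CT18 to CT22 and 0.10 to 0.15 across the other steps. Neighbouring steps share libraries, and the counts of different steps were not tested against each other. The spread was not equal at all times. For genes of at least 5 CPM, the standard deviation of the log2 difference between days was 0.12 at CT18, 0.15 at CT14 and CT22, 0.23 at CT10, 0.24 at CT6 and 0.35 at CT2. The order of the steps therefore holds for the pooled spread only. Fitted alone, the 4 libraries gave 1031 genes at an unadjusted p under 0.05, and the other steps were not fitted alone.

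**Figure D1:**
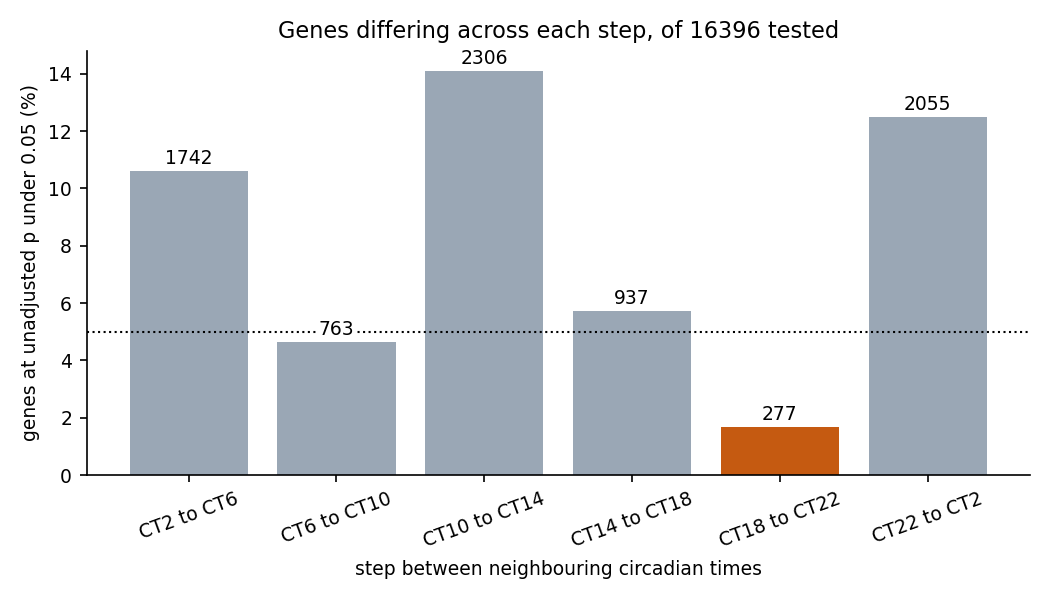
Percentage of the 16396 tested genes at an unadjusted p under 0.05 (vertical axis) for each step between neighbouring circadian times (horizontal axis), with the number of genes above each bar and a dotted line at the threshold of 5%. The CT18 to CT22 bar, in orange, is the lowest, at 277 genes.

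The precision of the comparison limits how large an unseen change could be. For 9401 of the 10183 genes that averaged at least 5 CPM over the 4 libraries (92.3%), the 95% interval of the difference lay within 1.5-fold in both directions, and for 9988 (98.1%) it lay within 2-fold. Over all tested genes, which include many with few counts, these shares were 61% and 76.9%. The median distance from the estimate to either bound of the interval was 0.21 on the log2 scale for genes of at least 5 CPM. These intervals hold for single genes and are not adjusted for the number of genes tested. Differences under 0.21 were therefore mostly not detectable, and larger ones could also miss the adjusted threshold. Cpt1a, at a log2 difference of 0.39, had an unadjusted p of 0.00136 and an adjusted p of 0.9995 in the main test. Libraries of different times were about as far apart as libraries of the same time. The median size of the log2 difference per gene was 0.06 between the CT18 libraries and 0.07 between the CT22 libraries, against 0.06 (day 1) and 0.07 (day 2) between times.

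The clock genes showed small differences, and of 22 tested members of the clock lists 1 reached an unadjusted p under 0.05. The activators lay flat. Arntl read 23.7 and 27.1 CPM at CT18 and 26.2 and 25.02 CPM at CT22, a log2 difference of 0.01 ± 0.09. Clock read 45.6 and 47.0 CPM, then 44.5 and 51.1 CPM, a log2 difference of 0.05 ± 0.07. The groups overlapped for both genes, and also for Npas2, a CLOCK paralogue at 0.15 to 0.44 CPM.

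Of the 5 period and cryptochrome repressors, Cry1 alone had groups that did not overlap. It read 30.8 and 30.3 CPM at CT18 and 33.2 and 32.3 CPM at CT22 (log2 difference 0.10 ± 0.10, 95% interval -0.12 to 0.31). Per2, a core repressor, read 16.1 and 15.7 CPM at CT18 and 16.2 and 15.3 CPM at CT22. Its log2 difference was -0.01 ± 0.10, with an interval from -0.23 to 0.21, so a 2-fold change of Per2 lay outside what these libraries allow. Per1 (-0.03 ± 0.09), Cry2 (-0.04 ± 0.11) and Per3 (-0.20 ± 0.23) overlapped between times too.

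The REV-ERB genes stood lower at CT22. Nr1d1 (GRCm38 chr11:98767932-98775333, minus strand) read 7.01 and 6.91 CPM at CT18, then 5.66 and 4.86 CPM at CT22. Both CT22 values were below both CT18 values and below the other 8 libraries, which ran from 5.94 CPM at CT2 to 8.63 CPM at CT10. The log2 difference was -0.40 ± 0.13, with an unadjusted p of 0.00875 and an adjusted p of 0.9995. Nr1d2 (chr14:18204054-18239127, minus strand), its close paralogue, read 56.5 and 51.6 CPM at CT18 and 47.8 and 45.5 CPM at CT22, again without overlap (log2 difference -0.21 ± 0.10, unadjusted p 0.0682). The ROR receptor gene Rora, whose product activates the sites that REV-ERB represses, showed no such offset, with a log2 difference of 0.01 ± 0.11 and overlapping groups. In the main test Nr1d2 had an adjusted p of 0.9995 and a 95% interval from -0.44 to 0.02. Nr1d2, but not Nr1d1, passed when the 4 libraries were fitted alone with the day as a replicate block (adjusted p 0.0351). That fit has 1 residual degree of freedom and was added after the data were seen.

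Among clock outputs, the PAR bZIP factors Dbp (-0.07 ± 0.10) and Hlf (-0.35 ± 0.28) overlapped between times, while Tef read 43.8 and 45.4 CPM at CT18 and 42.7 and 41.0 CPM at CT22 (-0.09 ± 0.08). Bhlhe40, a repressor of E-box genes, read 14.8 and 17.7 CPM and then 17.9 and 19.5 CPM (0.21 ± 0.25). Wee1, Nampt, Usp2, Nfil3, Ciart and Bhlhe41 all overlapped, with log2 differences from 0.00 (Ciart) to 0.33 (Bhlhe41, under 1 CPM in all 4 libraries). Across all 22 clock genes the median log2 difference was 0.01, 2 members had both CT22 values above both CT18 values and 3 had both below. Over all tested genes, 17.1% had both above and 17.1% both below.

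The gene with the smallest p was Cpt1a (chr19:3322334-3385733, plus strand), the enzyme that commits long-chain fatty acids to import into mitochondria. It read 58.9 and 62.2 CPM at CT18, then 72.7 and 85.6 CPM at CT22. Both CT22 libraries lay above both CT18 libraries, a 1.31-fold ratio and a log2 difference of 0.39 ± 0.09 (unadjusted p 0.00136, adjusted p 0.9995). The level had been 77.6 and 73.4 CPM at CT14 and was 53.2 and 54.5 CPM at CT2, so CT22 stood as a local high between lower values on either side. The change of slope from the CT14 to CT18 step to the CT18 to CT22 step was 0.70 ± 0.16 (unadjusted p 0.00102, adjusted p 0.9998). Cpt1a did not pass in the 4 libraries fitted alone (adjusted p 0.0729) or with the replicate block over all 12 libraries (adjusted p 0.9999). It passed without the filter on low counts (adjusted p 0.00393), in a fit that gave genes a shared spread and none of their own. Cpt1a also passed in the 4 libraries with the replicate block (adjusted p 4.458e-07), a fit with 1 residual degree of freedom added after the data were seen.

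Other genes of small p stood higher at CT22 with no overlap. Gch1, which makes the first step of tetrahydrobiopterin synthesis, read 10.6 and 9.10 CPM at CT18 and 13.0 and 12.1 CPM at CT22 (0.35 ± 0.12). Pdk2, a kinase that restrains pyruvate dehydrogenase, read 7.32 and 8.44 CPM, then 9.89 and 10.2 CPM (0.35 ± 0.12). The zinc exporter Slc30a1 differed by 0.26 ± 0.09, with both CT22 values above both CT18 values. Bcl6, a transcriptional repressor that shapes T cell fate, read 27.5 and 27.96 CPM at CT18 and 30.4 and 33.7 CPM at CT22 (0.21 ± 0.07), where the other 8 libraries ran from 23.7 to 28.3 CPM. Vat1 (0.35 ± 0.11), the linker histone gene Hist1h1c (0.40 ± 0.14) and Cln8 (0.29 ± 0.10) were further protein-coding genes of small p, on none of the cell type marker lists. Which cells in the libraries made the RNA of these genes was not examined. The unadjusted p-values of these genes ran from 0.00818 for Vat1 to 0.0182 for Cln8.

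The genes that stood lower differed by less. Among genes of at least 5 CPM at an unadjusted p under 0.05, the median log2 difference was -0.22 over 47 lower genes and 0.31 over 42 higher ones. Art2b, an ectoenzyme on the T cell surface that transfers ADP-ribose to other surface proteins, read 94.5 and 94.0 CPM at CT18 and 81.3 and 80.9 CPM at CT22 (-0.22 ± 0.08). The 2 libraries of each of these times lay close together, but those of CT2 did not (126 and 111 CPM). Over the other 8 libraries Art2b ran from 62.4 to 126 CPM. Gbp4, a guanylate-binding protein gene, read 299 and 291 CPM and then 267 and 256 CPM (-0.18 ± 0.07). The host transcript of the miR-17-92 cluster, Mir17hg (chr14:115042879-115046727), read 14.9 and 17.1 CPM and then 13.4 and 12.2 CPM (-0.32 ± 0.11). In all 3 genes both CT22 values lay below both CT18 values. Art2b (adjusted p 0.00708) and Gbp4 (adjusted p 0.0227) passed in the 4 libraries with the replicate block, and neither did in the 4 libraries without it (adjusted p 0.108 and 0.213).

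The other genes of smallest p in this direction are given by their log2 differences. Nup85, a nuclear pore subunit gene, differed by -0.17 ± 0.06, Dsn1, which encodes a kinetochore protein, by -0.26 ± 0.10, and Xrcc2, a recombination repair gene, by -0.33 ± 0.12. Spata5l1 (-0.32 ± 0.11), the zinc finger gene Zfp773 (-0.32 ± 0.11), the mitochondrial carrier Sfxn2 (-0.22 ± 0.08), the noncoding RNA Ftx (-0.25 ± 0.09) and Mthfsd (-0.19 ± 0.07) made up the rest. Nek8, a ciliary kinase gene, and Stxbp4 were among the largest differences downward, at -0.33 ± 0.13 and -0.37 ± 0.16. No gene of at least 5 CPM at an unadjusted p under 0.05 stood lower by over 1 on the log2 scale, and 5 stood higher by more than that. These 5 were Ighg1, Il1rn, Cxcr2, S100a9 and Cxcl13, which are described below with the cell type markers.

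**Figure D2:**
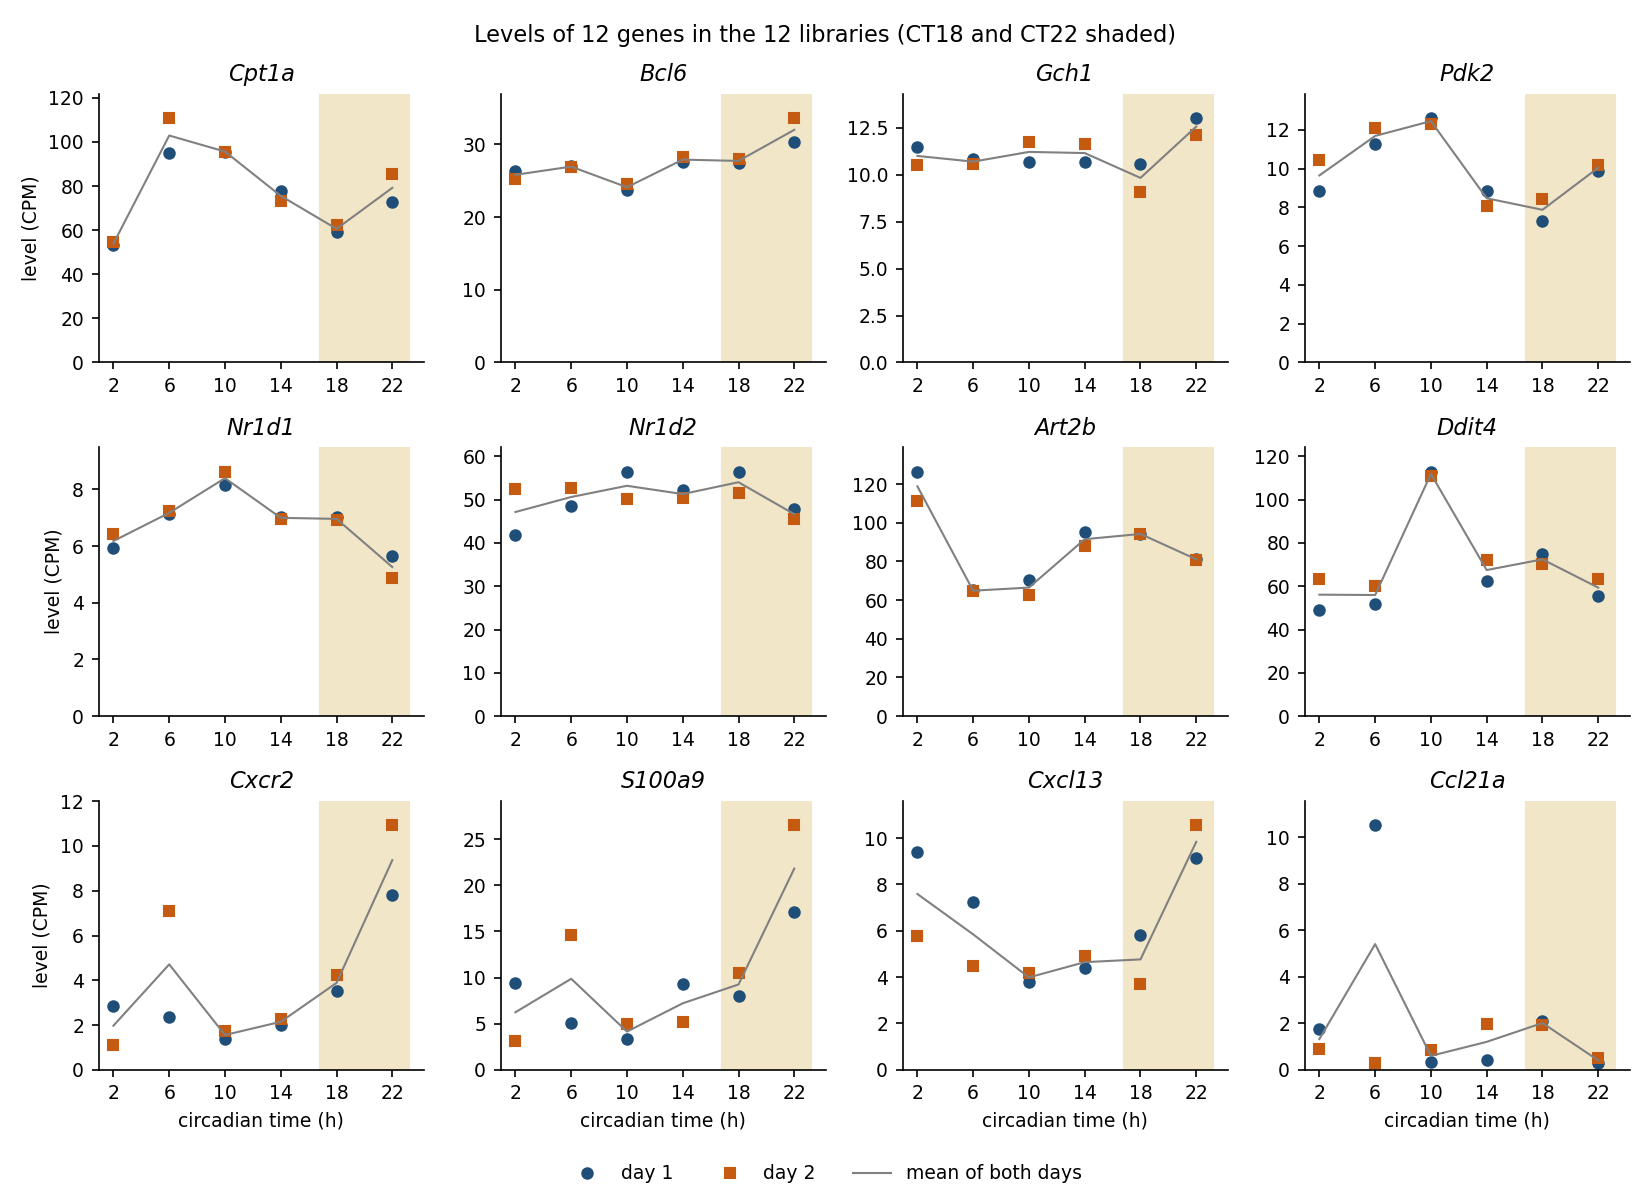
Level in CPM (vertical axes, from 0) of 12 genes at each circadian time in hours (horizontal axes), with circles for day 1, squares for day 2 and a grey line through the mean of both days; CT18 and CT22 are shaded. Cpt1a is higher at CT22 than at CT18 on both days, Nr1d1 is lower, and the neutrophil genes Cxcr2 and S100a9 are highest in the CT22 libraries.

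No T cell receptor gene passed the test. Of 9 genes of the receptor complex and co-receptor, 7 had log2 differences below 0, 5 had both CT22 values below both CT18 values (17.1% of all tested genes did), and the median was -0.05 against -0.00 over all tested genes. Cd8b1, the second co-receptor chain, read 1075 and 1091 CPM at CT18 and 1063 and 977 CPM at CT22 (-0.09 ± 0.08). Cd3e, a signalling chain, read 574 and 577 CPM and then 559 and 550 CPM (-0.05 ± 0.11). Trac, the constant region of the receptor alpha chain, read 664 and 659 CPM and then 633 and 608 CPM (-0.09 ± 0.08).

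Of the proximal signalling genes, 12 of 13 lay below 0 and 8 had both CT22 values below (17.1% over all tested genes), with a median of -0.05 and no member at an unadjusted p under 0.05. The adaptor Lat differed by -0.11 ± 0.09 and the receptor Cd5, which dampens T cell receptor signals, by -0.09 ± 0.07. The sum over the 13 genes was 7693 and 7711 CPM at CT18 and 7427 and 7361 CPM at CT22. CPM values are shares of a library, and the summed monocyte and macrophage markers were higher at CT22 in the same libraries; their part in these differences was not tested.

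Genes for lymph node traffic and T cell maintenance stood on both sides of 0. Il7r, the receptor chain for the survival cytokine interleukin 7, read 511 and 523 CPM and then 465 and 494 CPM (-0.11 ± 0.10). The groups did not overlap, and the 95% interval of the difference included 0. The traffic list had 5 of 13 members above 0 (median -0.02), the interleukin 7 list 8 of 15 (median 0.00), and the naive identity list 5 of 14 (median -0.01). In the cytotoxic list, 6 of 19 lay above 0 (median -0.06), and Prf1, the perforin gene, read 111 and 101 CPM and then 96.9 and 95.1 CPM (-0.14 ± 0.08).

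Cytosolic heat shock chaperones fold and refold proteins. Of 20 members, 16 had log2 differences below 0 and 8 had both CT22 values below both CT18 values (17.1% over all tested genes), with a median of -0.07 and no member at an unadjusted p under 0.05. Hsph1, an HSP110 chaperone gene, read 153 and 160 CPM at CT18 and 145 and 133 CPM at CT22 (-0.17 ± 0.09, unadjusted p 0.0803). St13, an HSP70 cofactor gene, read 132 and 134 CPM and then 130 and 121 CPM (-0.09 ± 0.07). At CT14, Hsph1 had stood at 333 and 366 CPM, so the level differed more between CT14 and CT18 than between CT18 and CT22. Hspa1a and Hspa1b are near-identical copies, and their counts are uncertain.

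The contrast of the CT18 to CT22 step with the CT14 to CT18 step tested that change of slope in every gene, and 0 of 16396 genes passed (0%, smallest adjusted p 0.9791), with 391 at an unadjusted p under 0.05. For Hsph1 the difference between the steps was 0.99 ± 0.16 (unadjusted p 5.972e-05). DESeq2 called 2 genes in this contrast, both of the chaperone list. They were Hsph1 (adjusted p 7.385e-05) and Stip1 (adjusted p 0.00920), the gene of the cochaperone that links HSP70 with HSP90, singled out after their values were seen.

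Growth and RNA processing lists also had members on 1 side of 0, at small sizes. Splicing factors and CLK kinases had 16 of 17 members below 0 (median -0.06), with 7 below without overlap (17.1% over all tested genes). Srsf6, a splicing factor gene, read 449 and 460 CPM at CT18 and 423 and 404 CPM at CT22 (-0.14 ± 0.08), and the kinase gene Clk4 read 128 and 122 CPM and then 120 and 112 CPM (-0.11 ± 0.06). Ribosome biogenesis had 18 of 21 below 0 (median -0.04), and its 1 member at an unadjusted p under 0.05 was Gnl3, a nucleolar GTPase gene, at 115 and 111 CPM and then 104 and 96.9 CPM (-0.17 ± 0.07). Proteasome subunits had 20 of 22 above 0 (median 0.04) and cytosolic ribosomal proteins 21 of 25 (median 0.02). On single days the medians of the last 2 lists were 0.10 and 0.08 on day 1 but -0.00 and -0.03 on day 2, whereas splicing (-0.04 and -0.07), ribosome biogenesis (-0.04 and -0.05) and chaperones (-0.06 and -0.08) lay below 0 on both days.

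The differences of Fos and Jun, subunits of the early response factor AP-1, turned mainly on 1 library. Fos read 111 and 189 CPM at CT18 and 191 and 173 CPM at CT22, and Jun read 97.8 and 143 CPM and then 145 and 132 CPM. The CT18 library of day 1 was the low value for both, and the groups overlapped. The AP-1 list had a median of 0.16, which was 0.40 on day 1 and -0.11 on day 2, and without the day 1 CT18 library it was -0.06. Fos and Jun passed in the 4 libraries fitted alone with the replicate block, a fit with 1 residual degree of freedom. Ddit4, a stress-induced inhibitor of mTORC1, read 74.7 and 70.2 CPM and then 55.4 and 63.3 CPM (-0.29 ± 0.12, unadjusted p 0.0381), without overlap. Ddit4 and Bcl6 belong to the glucocorticoid-induced list, in which 8 of 18 members lay above 0 (median -0.03).

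**Figure D3:**
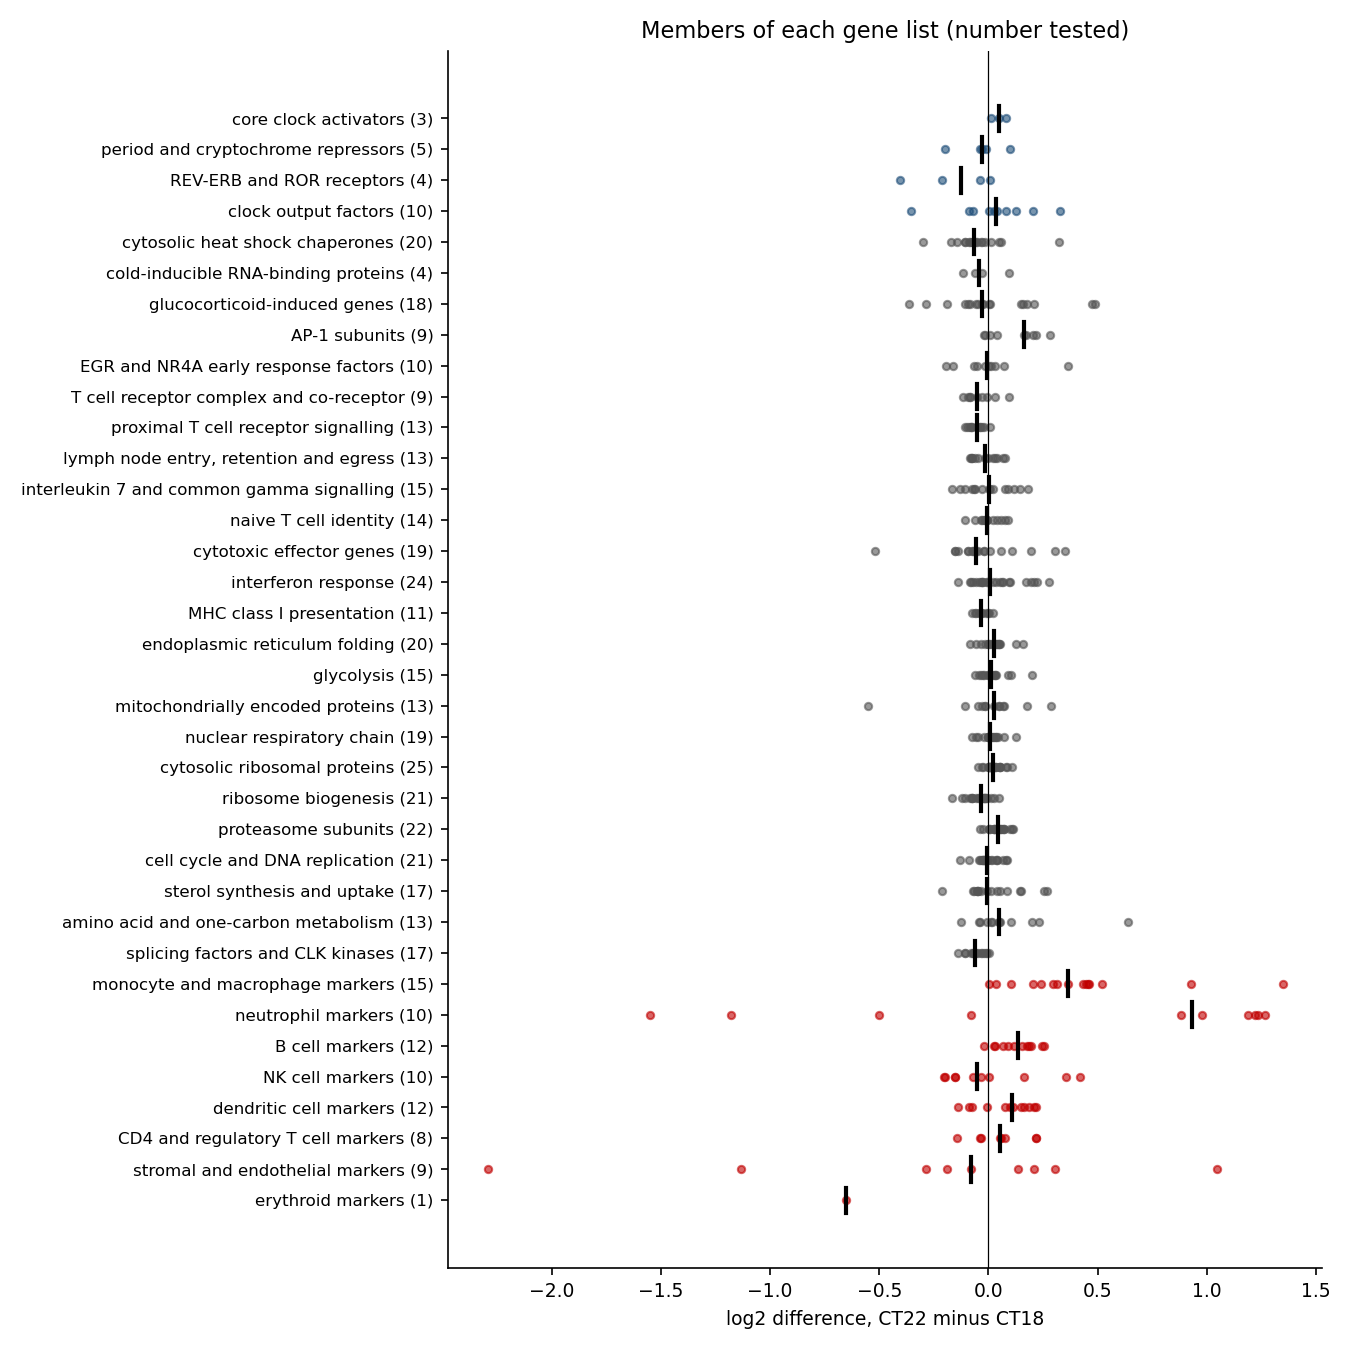
Log2 difference CT22 minus CT18 (horizontal axis) of every tested member of the 36 gene lists (rows, with the number tested), with clock lists in blue, functional lists in grey and markers of other cell types in red; black bars are medians. Clock and functional lists sit close to 0, with medians from -0.13 to 0.16, and the monocyte and neutrophil marker rows reach past 1.

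The remaining functional lists had medians between -0.05 and 0.05. Interferon response genes had 12 of 24 members above 0, with medians of -0.14 on day 1 and 0.19 on day 2. Endoplasmic reticulum folding had 15 of 20 above 0, glycolysis 8 of 15, the nuclear respiratory chain 12 of 19, sterol synthesis 8 of 17 and cell cycle genes 8 of 21. In the folding list Xbp1, the transcription factor of the unfolded protein response, read 49.1 and 52.0 CPM at CT18 and 55.8 and 56.9 CPM at CT22 (0.16 ± 0.09). In glycolysis Pkm, the pyruvate kinase gene, read 441 and 439 CPM and then 470 and 468 CPM (0.09 ± 0.08).

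The medians of the monocyte (0.37) and neutrophil (0.93) marker lists were larger in size than that of any clock or functional list. Csf3r, the neutrophil receptor for the growth factor G-CSF, read 13.6 and 16.5 CPM at CT18 and 29.9 and 38.7 CPM at CT22 (1.19 ± 0.56). S100a9, an abundant neutrophil and monocyte protein gene, read 8.04 and 10.5 CPM and then 17.1 and 26.5 CPM (1.24 ± 0.52, unadjusted p 0.0363). The chemokine receptor gene Cxcr2 read 3.53 and 4.24 CPM and then 7.81 and 10.9 CPM (1.27 ± 0.45, unadjusted p 0.0174). Every CT22 value of these genes was above every CT18 value, and none passed the test. Il1rn, the interleukin 1 receptor antagonist gene, differed by 1.33 ± 0.54 and Ifitm2 by 0.92 ± 0.40.

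Monocyte and macrophage markers had 15 of 15 log2 differences above 0 (median 0.37), 8 without overlap (17.1% of all tested genes were above without overlap). Their summed level was 1272 and 1400 CPM at CT18 and 1466 and 1789 CPM at CT22, against 673 to 1546 CPM in the other 8 libraries. Lyz2, the lysozyme gene of these cells, read 463 and 494 CPM and then 583 and 721 CPM. The myeloid surface genes Csf1r (69.0 and 80.6 CPM, then 89.9 and 115 CPM) and Ccr2 (114 and 130 CPM, then 143 and 187 CPM) did not overlap either, while the inflammatory monocyte gene Ly6c2 read 372 and 410 CPM and then 388 and 395 CPM, with overlap.

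Neutrophil markers stood on both sides of 0. Of 10 tested, 6 stood higher and 4 lower, with a median of 0.93 and sums of 43.0 and 54.9 CPM at CT18 and 75.2 and 113 CPM at CT22. The granule gene Ngp, made by neutrophil precursors, read 2.96 and 4.31 CPM at CT18 and 0.69 and 1.80 CPM at CT22 (-1.55 ± 0.47), and Ltf, another granule gene, read 2.39 and 3.65 CPM and then 0.62 and 2.06 CPM. The defining neutrophil gene Ly6g was not tested, with 5, 1, 0 and 2 counts in the 4 libraries.

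Dendritic cell markers summed to 856 and 861 CPM at CT18 and 877 and 948 CPM at CT22, and CD4 and regulatory T cell markers to 207 and 206 CPM and then 202 and 220 CPM. NK cell markers summed to 251 and 276 CPM and then 268 and 300 CPM, but 6 of 10 members lay below 0 (median -0.05). Fcer1g (0.42 ± 0.35) and Tyrobp (0.35 ± 0.35) were among the 4 above 0. Fcer1g read 32.7 and 42.1 CPM at CT18 and 45.5 and 54.7 CPM at CT22, and Tyrobp 60.5 and 68.2 CPM and then 76.7 and 87.8 CPM. Together they rose by more than the NK list sum on each day, so the other members summed lower at CT22. The B cell marker sums were 1111 and 978 CPM and then 1169 and 975 CPM. B cell markers had 11 of 12 members above 0 (median 0.13), all 12 with overlapping groups. Stromal and endothelial markers summed to 168 and 160 CPM and then 156 and 163 CPM, with single genes on both sides. Cxcl13, a chemokine of follicular stroma, read 5.84 and 3.69 CPM and then 9.13 and 10.5 CPM (1.05 ± 0.29, unadjusted p 0.00381), while Ccl21a, a chemokine of the T cell zone, read 2.08 and 1.94 CPM and then 0.29 and 0.52 CPM. Ighg1, an antibody heavy chain gene of B lineage cells, read 3.56 and 2.30 CPM and then 6.02 and 15.2 CPM (1.86 ± 0.65). Erythroid genes were near 0, with the 1 tested gene, Hbb-bs, between 0.41 and 2.23 CPM.

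**Figure D4:**
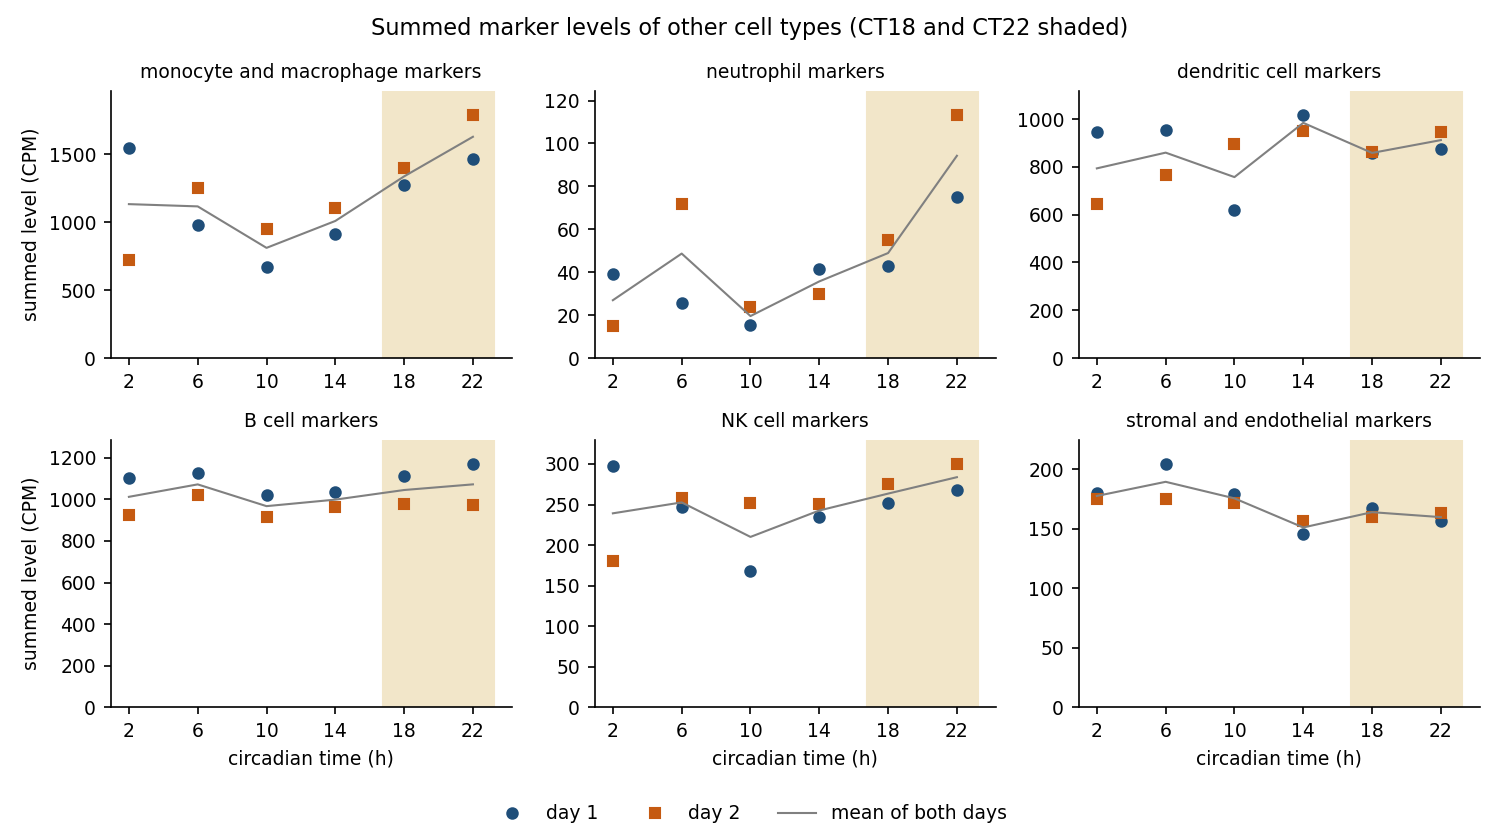
Summed level in CPM (vertical axes, from 0) of the tested markers of 6 other cell types at each circadian time in hours (horizontal axes), with circles for day 1, squares for day 2 and a grey line through the mean; CT18 and CT22 are shaded. Neutrophil marker sums are highest in the CT22 libraries, at 75.2 and 113 CPM, while B cell sums lie further apart between days than between CT18 and CT22.

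The 25 genes called when the spread came from the 4 libraries alone included 3 genes of the monocyte and neutrophil lists, and 4 of any marker list. The monocyte and neutrophil lists had 15 and 10 members among the 16396 tested genes. The 20 higher genes included Il1b, Csf3r, Cxcr2, Il1rn, S100a9, Chil3, Fpr2, Msr1, F13a1, Clec4e, Clec4a2, Ms4a6d, Pla2g7, Tgfbi, Cxcl10, Ifitm1 and Ifitm3. Il1b, an inflammatory cytokine gene, read 9.29 and 11.8 CPM at CT18 and 23.3 and 29.4 CPM at CT22, and Tgfbi read 59.3 and 81.2 CPM and then 126 and 157 CPM. Anxa2, Tnfaip2 and App were the remaining 3.

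The 5 lower genes were Glycam1, Ccl21a, Col4a1, Igha and the pseudogene Gm1943. Glycam1, a mucin of the high endothelial venules through which lymphocytes enter, read 5.27 and 5.01 CPM and then 0.73 and 1.46 CPM, and it ran from 0.50 to 50.1 CPM over the other 8 libraries. None of the 25 was on a clock or functional list. Those lists held 372 of the 10183 genes of at least 5 CPM, so 0 of 25 is no sign of a lower share. With the day as a replicate block as well, a setting added after the data were seen, 316 genes passed in the 4 libraries (1.93%, 272 higher and 44 lower). These held all 25 and, on the clock and functional lists, 7 genes: Nr1d2, Hsph1, Ddit4, Fos, Jun, Cebpb and Zeb2. Those lists held 372 genes of at least 5 CPM alone, so their share was no larger than the 1.93% of all tested genes. Without the filter on low counts, 126 of 29911 genes passed (0.421%, 101 higher and 25 lower), among them 24 of the 25. That fit gave genes a shared spread and estimated none for the single gene. It compares the same CT18 and CT22 libraries, so the overlap is not separate evidence. The part of the other cell types in these calls was not tested.

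Each day gave its own difference, from libraries that the other day did not use. Over the 10183 genes of at least 5 CPM the differences of the 2 days correlated with Pearson's r = 0.26 and Spearman's rho = 0.06 across genes, which are not independent replicates, and 50.9% had the same sign. At a size over 0.2 on the log2 scale on both days, 228 genes stood higher and 45 lower. Without the members of the marker lists, 213 stood higher and 45 lower over 10124 genes, with r = 0.23. The monocyte and neutrophil lists held 16 of the 10183 genes (0.157%). Of the 228, 11 were on these lists (4.83%). The clock and functional lists held 372 of the 10183 genes, 2 of the 228 and 1 of the 45, Nr1d1. Both of these shares were below the share over the 10183 genes. Genes known from myeloid cells among the 228, singled out after their values were seen, were Lyz2, Mpeg1, Csf1r, Spi1 and Itgam.

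**Figure D5:**
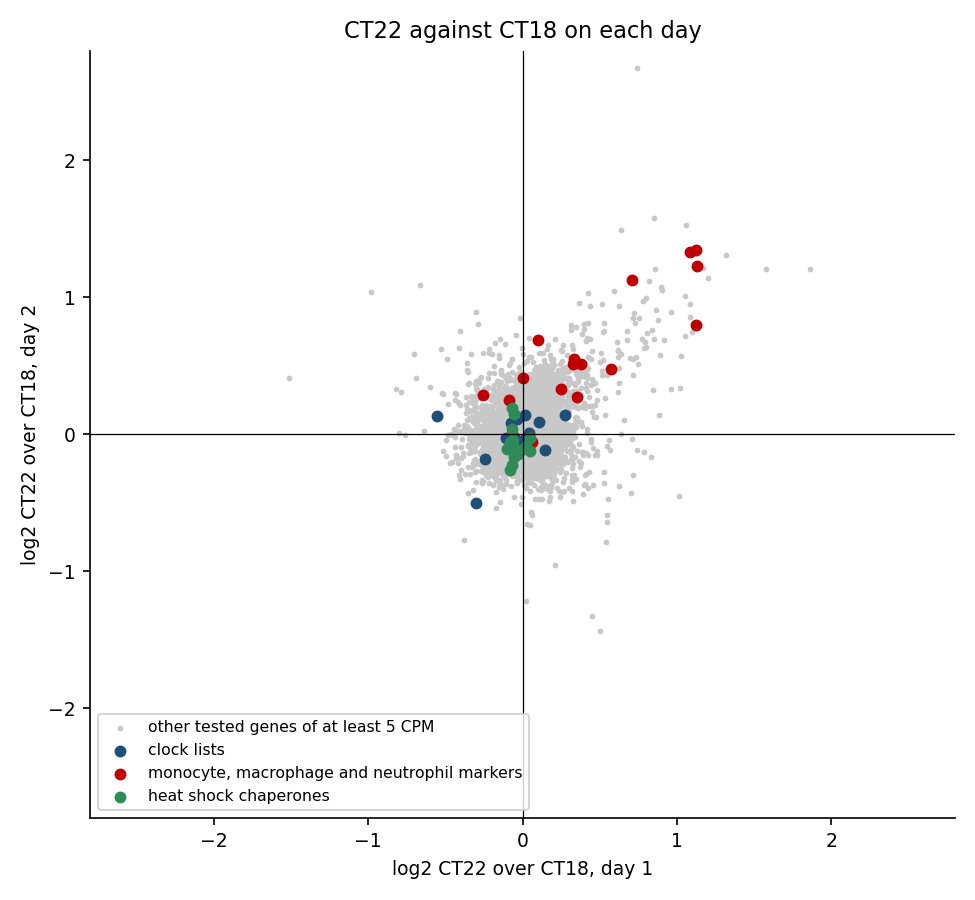
Log2 ratio of CT22 over CT18 on day 1 (horizontal axis) and day 2 (vertical axis) for the genes of at least 5 CPM, 1 point each, with clock genes in blue, monocyte, macrophage and neutrophil markers in red and heat shock chaperones in green. Most genes form a round cloud at 0 (50.9% with the same sign on both days), and 11 of the red points lie above 0.2 on both days.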

How the data were processed

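Reads had been demultiplexed and processed with bcl2fastq 2.19, Trimmomatic 0.35, STAR 2.5.1b, RSEM 1.2.28 and the build GRCm38, as listed per the submitters' processing notes. The sources used here do not give their gene annotation. The deposited main files hold unnormalised read counts per gene, and column 4 of 3 count columns (reverse-stranded) was used. The 4 rows that name no gene, 29.3% to 31.2% of the counts, were left out. The authors also deposited RSEM expected counts and TPM values, used only in alternatives; expected counts were rounded, and TPM was taken as log2(TPM + 1). Of 50600 identifiers, 50376 matched a symbol in GENCODE M21, which also gave the coordinates.

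All 12 libraries were fitted with edgeR 4.0.16 (R 4.3.3), 1 mean per circadian time and 6 residual degrees of freedom. filterByExpr kept 16396 genes, TMM set the scaling, and quasi-likelihood p-values were Benjamini-Hochberg adjusted, with 0.05 as the threshold. limma 3.58.1 and DESeq2 1.42.0 served as alternatives.

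Named were genes of at least 5 CPM whose groups did not overlap, leaving out predicted, Rik and clone genes, pseudogenes and receptor segments (each way the 12 of smallest p, and the 6 of largest difference at an unadjusted p under 0.05), all tested clock genes, the 2 genes of smallest p in each other list, and Cd8a, Cd8b1 and Cd3e. Some genes that this rule picks are not reported here. Other named genes were chosen after their values were seen. Members and lists were chosen with earlier results of these data known. Replicate numbers stand for collection days in the labels, which pairs libraries of 1 day; day deviations at CT18 and CT22 correlated across 10152 genes with r = 0.08. Replicates differed beyond counting noise (chi-square per degree of freedom 3.07 at CT18 and 6.15 at CT22). The value was highest at CT2, at 40.18, and ran from 5.835 to 10.56 at CT6, CT10 and CT14.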

Additional observations from a re-analysis of the deposited data

How the results depend on the processing

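The count of genes passing stayed at 0 under DESeq2 size factors, upper quartile scaling, a 5 CPM filter, DESeq2, limma on TPM, unstranded counts, RSEM counts, the replicate block (day) with all 12 libraries (238 genes at an unadjusted p under 0.05), and leaving out any 1 library or both CT2 libraries. It was 126 (101 higher, 25 lower) without the filter on low counts, 25 (20 higher, 5 lower) in the 4 libraries alone and 316 (272 higher, 44 lower) in the 4 libraries with the replicate block. Genes at an unadjusted p under 0.05 numbered 812, 1031 and 1313 in these fits, 94 with the 5 CPM filter, 80 with DESeq2, 427 with limma, 506 without both CT2 libraries and 162 to 508 with 1 library left out (162 without the day 2 CT22 library, 167 without the day 1 CT18 library, 508 and 493 without a CT2 library). The contrast with the CT14 to CT18 step gave 38 genes without the filter and 2 with DESeq2. The 4 libraries alone could give no value for it. The fit without the filter estimated no spread for single genes, so its counts of passing genes rest on a shared spread. CT18 to CT22 kept the fewest genes in each of the 21 alternatives that held all 6 times, all of which pooled the spread over the times. A library left alone in its group was assumed to vary like the others. Leaving out CT6, CT10, CT14 or the first CT2 library was added after the data were seen. The cause of these shifts was not tested.

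Of the named genes whose sign turned, none had an unadjusted p under 0.05. With limma on TPM the log2 differences were -0.051 for Arntl, -0.12 for Bhlhe41, -0.046 for Ciart, -0.044 for Nampt, -0.071 for Npas2, -0.056 for Rora, -0.0302 for Trib3, -0.063 for mt-Nd3 and 0.11 for mt-Nd4l. RSEM counts gave -0.00058 for Npas2, 0.0059 for Per2, -0.0401 for mt-Nd3 and 0.12 for mt-Nd4l. Unstranded counts gave -0.0047 for Arntl and 0.014 for Cry2. Upper quartile scaling gave -0.0069 for Ciart and -0.00083 for Rora. Ciart was -0.00045 without the filter, -0.00062 in the 4 libraries and -0.00033 with the replicate block there. With 1 library left out, values ran from -0.0801 to 0.12 for Arntl, -0.35 to 0.041 for Bcl2, -0.16 to 1.05 for Bhlhe41, -0.18 to 0.0046 for Ccne1, -0.15 to 0.0045 for Ccr9, -0.062 to 0.069 for Ciart and -0.052 to 0.14 for Clock. For further genes they were -0.079 to 0.0075 for Cry2, -0.15 to 0.0198 for Dbp, -0.033 to 0.50 for Fcer2a, -0.056 to 0.72 for Fos, -1.94 to 0.094 for Hbb-bs, -0.043 to 0.50 for Jun and -0.036 to 0.12 for Nampt. The rest were -0.13 to 0.20 for Nfil3, -0.47 to 1.03 for Npas2, -0.0902 to 0.035 for Per1, -0.0501 to 0.034 for Per2, -0.46 to 0.024 for Per3, -0.057 to 0.075 for Rora and -0.026 to 0.27 for Usp2.

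Medians of the T cell receptor, proximal signalling, chaperone, splicing, ribosome biogenesis, proteasome, monocyte and neutrophil lists kept their sign in all 24 alternatives. Of the 36 list medians, 12 kept their sign in all of them and 24 turned in at least 1, each of these with a CT18 or CT22 library left out. Examples are B cell markers (lowest -0.06), cytotoxic genes (highest 0.03) and ribosomal proteins (lowest -0.03). The interferon, interleukin 7 and nuclear respiratory medians, each under 0.01 in size, also turned under upper quartile scaling.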
